A study of Mus musculus with 24 samples.

Results

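The myosin heavy chain genes Myh1, Myh2, Myh3, Myh4, Myh7, Myh8, Myh7b, Myh9, Myh10, and Myh14 were followed in mouse muscle sheets that had been exercised with light. They were picked by gene symbol from a list drawn up with levels and fold changes of these same libraries known, so that every value and p given for them is a description and no independent evidence. All 10 symbols were found once among the 56941 genes of the count table, and all 10 passed the filter on low counts with 13315 genes in total. The other class II heavy chain genes of the mouse, Myh6, Myh11, Myh13, and Myh15, were not on the list. The tissues were grown from C2C12, a mouse myoblast line, carrying ChR2::tdTomato, a light-gated channel fused to a red fluorescent protein. Every tissue, controls included, carried this channel, lay on a fibrin gel, and was kept in horse serum with IGF-1, and the unstimulated controls also twitched on their own. The light was given daily for 60 min at 1, 4, or 10 Hz, and controls received none. Each of the 4 conditions had 6 libraries, which the study calls biological replicates of 1 cell line, so p-values measure the spread between cultures of that line.

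A myosin heavy chain pairs with a partner through its coiled-coil tail and carries at its other end a motor head that binds actin and splits ATP. Skeletal muscle makes the embryonic chain (Myh3) and the perinatal chain (Myh8) during development and regeneration, and then mostly the slow chain (Myh7) or the fast chains IIa (Myh2), IIx (Myh1), and IIb (Myh4). Myh7b is a distantly related slow-type chain whose gene hosts miR-499. Myh9, Myh10, and Myh14 encode the heavy chains of non-muscle myosin IIA, IIB, and IIC, which act in cell shape, adhesion, and division.

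A row of 5 muscle genes lies on the plus strand of chromosome 11 (GRCm39) in the order Myh3, Myh2, Myh1, Myh4, and Myh8. As annotated with all of its transcripts, Myh1 starts 142 bases after the end of Myh2. The coding sequences of Myh1 and Myh2 were identical at 91.0% of aligned bases, those of Myh4 and Myh1 at 90.1%, and those of Myh1 and Myh3 at 80.2%. The stretches below are exonic coding sequence of the motor head from the 60-base window where the 5 genes were least alike, with a mean identity between pairs of 64.8%. They are shown because reads from such stretches tell the neighbours apart, and capitals mark the bases that differ from Myh1.
Myh1, exon 15, chr11:67099925-67099984: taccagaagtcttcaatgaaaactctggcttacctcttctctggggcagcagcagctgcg
Myh2, exon 15, chr11:67072107-67072166: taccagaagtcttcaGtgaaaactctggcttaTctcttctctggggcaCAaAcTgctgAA
Myh4, exon 14, chr11:67139518-67139577: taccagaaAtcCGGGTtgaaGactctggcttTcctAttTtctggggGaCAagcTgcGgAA
Myh8, exon 16, chr11:67180599-67180658: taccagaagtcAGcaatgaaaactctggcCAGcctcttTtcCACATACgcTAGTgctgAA
Myh3, exon 16, chr11:66979890-66979949: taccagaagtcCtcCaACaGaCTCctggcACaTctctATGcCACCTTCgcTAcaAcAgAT

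Other stretches cannot tell them apart. In a window of the tail, Myh2, Myh4, and Myh8 had 0 differences from Myh1 and Myh3 had 1, again in capitals.
Myh1, exon 26, chr11:67106017-67106076: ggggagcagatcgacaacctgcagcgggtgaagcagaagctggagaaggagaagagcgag
Myh3, exon 27, chr11:66985573-66985632: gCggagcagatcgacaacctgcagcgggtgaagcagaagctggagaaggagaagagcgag
Of all 50-base windows of the canonical transcript, the length of a read, 24.1% of those of Myh2 also stood in another heavy chain gene, as did 21.5% for Myh1, 21.4% for Myh8, 19.1% for Myh4, and 4.81% for Myh3. For Myh7, on chromosome 14, the share was 22.6%, all with its neighbour Myh6. It was 1.12% for Myh9 and 0.941% for Myh10, and 0 for Myh7b and Myh14. The estimated counts divided such reads between genes, so values of Myh1, Myh2, Myh4, Myh8, and Myh7 carry this uncertainty and those of Myh7b and Myh14 do not.

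The intronic miRNAs of Myh7b, Myh7, and Myh6 are shown for their seeds (bases 2 to 8, in capitals), from RefSeq on GRCm38.p6.
mmu-miR-499-5p, in Myh7b: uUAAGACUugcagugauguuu
mmu-miR-208b-3p, in Myh7: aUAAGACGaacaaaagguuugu
mmu-miR-208a-3p, in Myh6: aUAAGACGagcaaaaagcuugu
The seeds of the miR-208 pair are the same, and that of miR-499-5p ends in another base. Their genes were listed at 0 in all 24 libraries. These libraries were made by poly(A) selection or ribodepletion, and whether they could hold RNAs this short was not tested. The value of 0 therefore does not show that the miRNAs were absent.

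The next sequences are the bases just before the RefSeq starts (GRCm38.p6, plus strand) of 3 members with different responses, shown to set the neighbours Myh2 and Myh1 beside Myh7b. Capitals mark TATAAA.
Myh2, chr11:67170877-67171026: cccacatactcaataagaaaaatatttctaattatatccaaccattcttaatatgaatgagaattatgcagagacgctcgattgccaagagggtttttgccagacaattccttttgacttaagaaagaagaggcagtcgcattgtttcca
Myh1, chr11:67199952-67200101: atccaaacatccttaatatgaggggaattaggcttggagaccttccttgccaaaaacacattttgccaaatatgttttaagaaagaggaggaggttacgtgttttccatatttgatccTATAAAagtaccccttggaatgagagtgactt
Myh7b, chr2:155611093-155611242: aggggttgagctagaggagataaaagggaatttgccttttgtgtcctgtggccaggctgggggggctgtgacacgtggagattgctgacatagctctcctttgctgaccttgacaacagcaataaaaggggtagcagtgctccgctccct
In the 250 bases before the starts, searched on both strands, TATAAA stood in 5 members (Myh1, Myh3, Myh4, Myh8, and Myh9) and in 12.4% of 32851 promoters. The MEF2 motif stood in Myh1, Myh4, and Myh8, 3 members, and in 2.92% of all promoters, and in Myh1 it overlapped a TATAAA farther upstream than the stretch printed. The E-box letters CAGCTG stood in 2 members against 13.0% of promoters and CACCTG in 2 against 17.2%. These matches are letters in a window and were not tested as sites.

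Estimated counts summed to 8052369 to 18159144 per library. Levels are given as CPM, estimated counts per 1000000 counts of the library, with library sizes scaled by edgeR's TMM. The labels call the cells myoblasts, but 10 of 10 markers of the skeletal muscle fibre were tested and they summed to 9306 to 17460 CPM per library, against 186.1 to 445 CPM for 6 markers of myoblasts and reserve cells. The latter list did not overlap between controls (364.5 to 445 CPM) and the 1 Hz (187.8 to 250.3 CPM) or 4 Hz (186.1 to 228.2 CPM) tissues in its sum, which spanned 347.1 to 390.4 CPM at 10 Hz. The list did not move together: Myod1, Cdh15, and Pax7 were lower and Myf5 and Spry1 were higher at both 1 and 4 Hz (edgeR), Vcam1 passed at neither, and the sum follows its most abundant genes, Myod1 and Cdh15. Mitochondrial genes took 1.37% to 2.72% of counts in controls and 1.44% to 2.56% at 10 Hz, but 1.52% to 4.87% at 1 Hz and 0.545% to 8.90% at 4 Hz, where replicates 1, 3, and 6 lay outside the control range. The labels state that low-input samples were depleted of ribosomal RNA instead of selected for poly(A) and do not name them, so a mixture of preparations within or between conditions cannot be told apart from the values below. In bulk RNA, fewer cells of a type and less RNA per cell cannot be told apart either.

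In the unstimulated controls the non-muscle gene Myh9 had the highest level of the 10 per length of transcript, 110.6 ± 17.2 CPM per kb of canonical transcript (SD, n = 6), and its range did not meet that of Myh1 (66.8 ± 8.22 CPM per kb). Myh1 was followed by Myh8 (51.3 ± 8.21), Myh7 (47.7 ± 11.2), Myh3 (43.8 ± 7.29), and Myh4 (39.3 ± 4.72 CPM per kb), and each of these overlapped its neighbour in the order. Embryonic, perinatal, slow, and fast chains were thus all present in tissues grown from a single line. Myh2 was apart from them at 10.3 ± 1.77 CPM per kb, and Myh10 (4.88 ± 0.687), Myh7b (3.10 ± 0.276), and Myh14 (0.711 ± 0.205 CPM per kb) came last with no overlap. In TPM, the authors' unit of transcripts scaled per length, Myh7 came before Myh8 (113.8 ± 20.8 against 80.4 ± 13.9 TPM), and the other ranks were the same. The TPM ranges of Myh9 and Myh1 overlapped, as did those of Myh10 and Myh7b. At 10 Hz the order was led among muscle genes by Myh3, at 56.0 ± 10.9 CPM per kb, ahead of Myh1 at 50.1 ± 4.93 CPM per kb, with overlapping ranges. In TPM the same tissues had Myh7 ahead (105.5 ± 16.2 TPM) and Myh3 behind Myh1 (85.1 ± 14.2 against 97.5 ± 6.59 TPM), so this order depends on the unit.

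**Figure D1:**
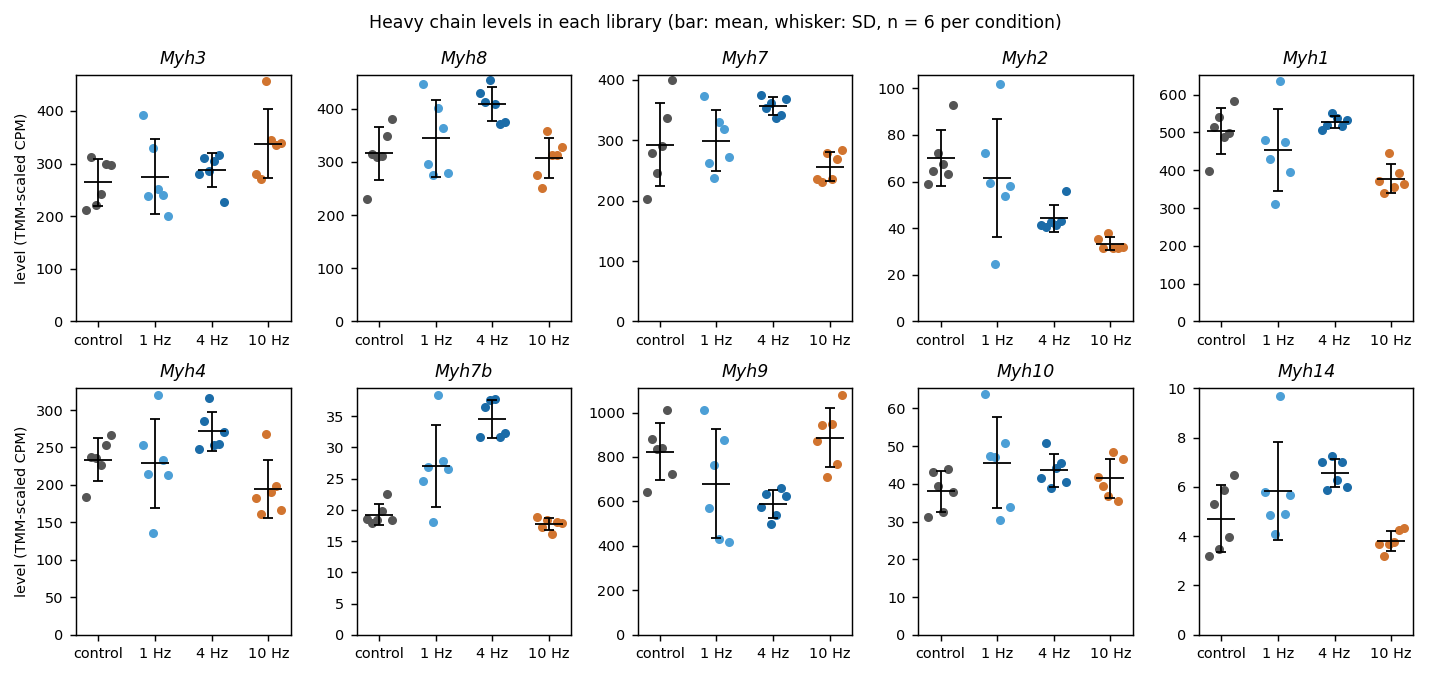
Level of each heavy chain gene (y axis, TMM-scaled CPM from 0) in the 24 libraries by condition (x axis). Points are libraries, bars are means, and whiskers are SDs. Myh7b at 4 Hz lies above every control, Myh2 at 4 and 10 Hz lies below every control, and the 1 Hz libraries have the largest SD of the 4 conditions for Myh1, Myh2, and Myh9.

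The comparisons with unstimulated tissue ask how the frequency of training bears on the myosin genes. At 4 Hz, Myh7b, Myh8, Myh7, and Myh14 were higher and Myh2 and Myh9 were lower in CPM, while in TPM only Myh7b, Myh2, and Myh9 of these passed and the sign of Myh14 was negative. At 1 Hz the member that passed was Myh7b, which was higher, and at 10 Hz it was Myh2, which was lower. By edgeR's quasi-likelihood test with Benjamini-Hochberg adjustment over all 13315 genes, 1 of 10 members passed an adjusted p of 0.05 at 1 Hz. There 37.3% of all genes passed, 19.2% higher and 18.1% lower. At 4 Hz 6 of 10 members passed against 51.4% of all genes, with 4 members higher against 27.5% and 2 lower against 23.9%. At 10 Hz 1 of 10 members passed against 0.0376% of all genes (5 genes), of which 0.015% were higher and 0.0225% lower. In CPM, the 6 libraries of a frequency lay wholly outside the control range for 0 members at 1 Hz, where they did so for 14.1% of all genes. These numbers were 2 members and 27.6% of genes at 4 Hz and 1 member and 1.64% of genes at 10 Hz. Without 4 Hz replicates 1, 3, and 6, a choice made after seeing the data that leaves 3 libraries at 4 Hz, 2 members passed against the control: Myh7b (0.86, adjusted p = 4.73e-05) and Myh2 (-0.77, adjusted p = 0.019). Myh8 (0.31, adjusted p = 0.098), Myh9 (-0.45, 0.12), Myh7 (0.22, 0.27), and Myh14 (0.41, 0.15) kept their signs and did not pass. The part of the mitochondrial share or the preparation was not tested. At 1 and 4 Hz the members' shares were near or under those of all genes and are no result about the members as a group. The median log2(fold change) of the members was 0.046, 0.21, and -0.15 at 1, 4, and 10 Hz, and that of all genes was 0.041, 0.061, and 0.0067. On the TPM scale the median of all genes was -0.14, -0.21, and -0.014. Relative to these medians, 8, 9, and 9 of the 10 members had the same direction on both scales.

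**Figure D2:**
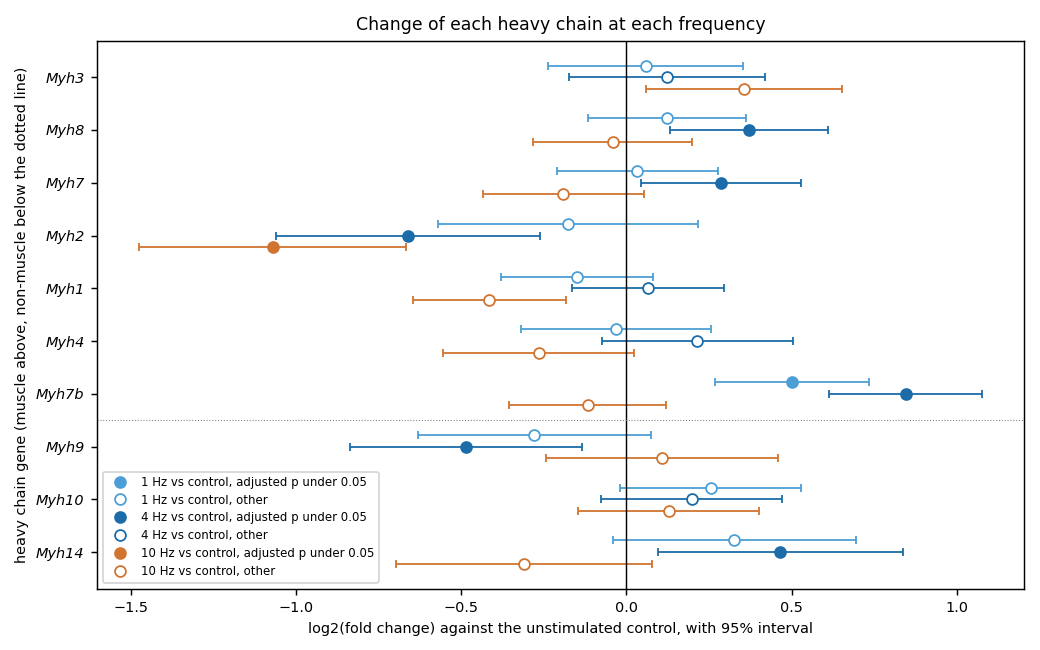
The log2(fold change) of each heavy chain gene (y axis) against the unstimulated control (x axis, log2 scale) at 1, 4, and 10 Hz, with 95% intervals from the edgeR fit. Filled points have an adjusted p under 0.05: Myh7b at 1 and 4 Hz, Myh2 at 4 and 10 Hz, and Myh8, Myh7, Myh9, and Myh14 at 4 Hz (in TPM the sign of Myh14 was negative).

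Of the developmental chains, Myh8 was higher at 4 Hz and Myh3 passed at no frequency. The lowest, median, and highest Myh8 levels were 229.9, 312.6, and 381 CPM in controls, 276.2, 330.4, and 447 CPM at 1 Hz, 371.1, 410.8, and 453 CPM at 4 Hz, and 251.7, 313.4, and 357.6 CPM at 10 Hz. The 4 Hz tissues sat at the top of the control range, with 4 of 6 over every control. The log2(fold change) of Myh8 at 4 Hz was 0.37 (SE 0.117, edgeR adjusted p = 0.010). In TPM, on log2(TPM + 1), it was 0.055 and did not pass (limma adjusted p = 0.79). For Myh3 the levels were 211.3, 269.9, and 311.6 CPM in controls, 199.5, 245.2, and 392.4 CPM at 1 Hz, 227.9, 295.9, and 316.5 CPM at 4 Hz, and 271.3, 337.8, and 456.3 CPM at 10 Hz. At 10 Hz 4 of 6 libraries lay above every control and the groups overlapped, with a log2(fold change) of 0.36 (95% interval 0.06 to 0.65, edgeR adjusted p = 0.51).

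Of the slow-type chains, Myh7b showed the largest rise among the 10 members at 1 and at 4 Hz. This gene (ENSMUSG00000074652) lies on chromosome 2 from 155453096 to 155476234, plus strand, GRCm39. Its levels were 17.96, 18.42, and 22.47 CPM in controls, 18.03, 26.72, and 38.42 CPM at 1 Hz, 31.64, 34.37, and 37.7 CPM at 4 Hz, and 16.08, 17.93, and 18.88 CPM at 10 Hz. All 6 libraries at 4 Hz and 5 of 6 at 1 Hz were above every control, while those at 10 Hz overlapped the controls at their lower end. Myh7b was 1.42-fold higher at 1 Hz (log2(fold change) 0.50, SE 0.113, edgeR adjusted p = 0.0012) and 1.80-fold higher at 4 Hz (0.84, SE 0.113, adjusted p = 1.5e-06), and its value at 10 Hz was -0.12 (95% interval -0.35 to 0.12, adjusted p = 0.89). Both rises passed in each fit that left out a library and on both TPM scales. The ends of Myh7b overlap Gss and Trpc4ap on the other strand. For these the log2(fold change) at 4 Hz was 0.12 (adjusted p = 0.23) and 0.02 (adjusted p = 0.86).

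Myh7, the main chain of slow fibres, had levels of 203, 285.1, and 399.2 CPM in controls, 237.8, 295.9, and 373.1 CPM at 1 Hz, 337.1, 357.9, and 375.6 CPM at 4 Hz, and 231.3, 252.7, and 284.8 CPM at 10 Hz. The 4 Hz libraries were packed into the upper part of the control range and none lay beyond it. Its log2(fold change) at 4 Hz was 0.29 (SE 0.118, edgeR adjusted p = 0.045). Of the 12 fits that left out a library, 2 still called it (those without control replicate 5 and 6), and in the rest the adjusted p was 0.060 to 0.15. DESeq2 gave an adjusted p of 0.089 and limma on log2(TPM + 1) a value of 0.091 (adjusted p = 0.61).

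Of the fast chains, Myh2 was lower at 4 and 10 Hz, and Myh1 and Myh4 did not pass at any frequency. The Myh2 levels were 59.1, 66.05, and 92.9 CPM in controls, 24.56, 58.75, and 102 CPM at 1 Hz, 40.43, 42.03, and 56.02 CPM at 4 Hz, and 31.32, 31.7, and 38.13 CPM at 10 Hz. All 12 libraries at 4 and 10 Hz lay below every control, and in CPM the 10 Hz libraries lay below every 4 Hz library. The difference between 10 and 4 Hz did not pass (-0.41, edgeR adjusted p = 0.092). On log2(TPM + 1) it was -0.087 (limma adjusted p = 0.745), and the TPM ranges of these 2 conditions overlapped (7.08 to 9.44 TPM at 10 Hz, 7.03 to 12.04 TPM at 4 Hz). The controls were 1.58-fold above 4 Hz (log2(fold change) -0.66, SE 0.193, edgeR adjusted p = 0.0067) and 2.10-fold above 10 Hz (-1.07, SE 0.195, adjusted p = 0.038). At 1 Hz the highest Myh2 library, replicate 4, was above every control and replicate 3, the lowest, was below every other library of the series, with a log2(fold change) of -0.18 (95% interval -0.57 to 0.22, adjusted p = 0.49). The 10 Hz value kept its size (-1.11 to -0.97) and had an adjusted p of 0.045 to 0.13 when libraries were left out, passing only without control replicate 5. On log2(TPM + 0.1) it was -1.07 with a limma adjusted p of 0.16.

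Myh1 levels were 398.4, 506.5, and 583.8 CPM in controls, 310.4, 452, and 636.7 CPM at 1 Hz, 507.5, 526, and 551.4 CPM at 4 Hz, and 340.2, 367.4, and 445.7 CPM at 10 Hz. At 10 Hz 5 of 6 libraries were below every control, and the log2(fold change) was -0.41 (95% interval -0.64 to -0.18, edgeR adjusted p = 0.19). At 1 Hz it was -0.15 (adjusted p = 0.30). It passed without 1 Hz replicate 4 (-0.29, adjusted p = 0.025). In TPM it also passed (-0.40 on log2(TPM + 1), limma adjusted p = 0.022). For Myh4 the group medians were 236.5, 224.4, 263, and 186.6 CPM in controls and at 1, 4, and 10 Hz, with ranges of 184.4 to 266.4, 136 to 320.4, 247.9 to 316.5, and 161.4 to 268.3 CPM. Its log2(fold change) of -0.27 at 10 Hz had a 95% interval of -0.55 to 0.02. As with Myh2, 1 Hz replicate 4 was the highest and 1 Hz replicate 3 the lowest library of the series for Myh1 and Myh4.

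Of the non-muscle chains, Myh9 was lower and Myh14 was higher at 4 Hz. Myh9 levels were 644.3, 838.5, and 1013 CPM in controls, 416.7, 668.1, and 1013 CPM at 1 Hz, 498.3, 599.3, and 658.4 CPM at 4 Hz, and 709.7, 906.5, and 1078 CPM at 10 Hz. At 4 Hz 5 of 6 libraries lay below every control, and the 10 Hz libraries overlapped the controls at the upper end. Against controls Myh9 had a log2(fold change) of -0.49 at 4 Hz (SE 0.171, edgeR adjusted p = 0.021), -0.28 at 1 Hz (95% interval -0.63 to 0.07, adjusted p = 0.20), and 0.11 at 10 Hz (adjusted p = 0.95). The 4 Hz value passed on the TPM scale and without each library except control replicate 5 (-0.44, adjusted p = 0.051). At 1 Hz Myh9 passed without replicate 1 (-0.43, adjusted p = 0.037). The 1 Hz group was split: replicates 4 and 6 were the lowest libraries of the series for Myh9, and the lowest of their condition for Myh10, and mitochondrial genes took 3.97% and 4.87% of their counts, against 1.52% to 1.69% in the other 1 Hz libraries. Without these 2 libraries the 1 Hz value of Myh9 was -0.050. The part of RNA quality or preparation in that split was not tested.

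Myh10 had medians of 38.7, 47.15, 42.93, and 40.73 CPM in controls and at 1, 4, and 10 Hz, with ranges of 31.1 to 44, 30.49 to 63.81, 38.83 to 50.81, and 35.56 to 48.53 CPM. The groups overlapped throughout, and the log2(fold change) was 0.25 at 1 Hz (95% interval -0.02 to 0.53, edgeR adjusted p = 0.13) and 0.20 at 4 Hz (adjusted p = 0.22). It passed at 1 Hz without replicate 4 (0.33, adjusted p = 0.044) and without replicates 4 and 6 (0.44, adjusted p = 0.0046). Its 3′ end overlaps Ndel1 on the other strand, which passed with values of 0.24 (adjusted p = 0.0050) for 1 Hz and 0.26 (adjusted p = 0.0015) for 4 Hz. The study reports a directional (strand-specific) library kit. Whether the counting used the strand is not given in the sources used here, so reads of Myh10 and Ndel1 in that stretch may not be separated. Myh14 was the least abundant member at 3.19 to 6.48 CPM in controls. It had 4.09 to 9.70 CPM at 1 Hz and 5.89 to 7.24 CPM at 4 Hz, while 10 Hz tissues had 3.21 to 4.32 CPM. Its log2(fold change) of 0.47 at 4 Hz (SE 0.181, adjusted p = 0.033) was lost without control replicate 1, 3, or 5 or 4 Hz replicate 1, 3, 4, or 5 (adjusted p 0.057 to 0.094) and with DESeq2 (adjusted p = 0.058), and it was -0.12 on log2(TPM + 1).

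The ratio of 2 heavy chains within a library does not depend on how libraries are scaled, and it set the conditions apart where single levels overlapped. These ratios were chosen with the data in view and are given without a test. The estimated counts of Myh9 were 19.1 to 25.9 times those of Myh10 in controls and 19.3 to 23.8 times at 10 Hz, but 12.1 to 17.2 times at 1 Hz and 12.2 to 15.4 times at 4 Hz. All 12 libraries at 1 and 4 Hz were thus below every control and every 10 Hz library, including the 1 Hz replicates 4 and 6 in which both genes were low. Counts of Myh10 may hold reads of Ndel1 from the other strand, which was higher at 1 and 4 Hz (log2(fold change) 0.24 and 0.26). The part of Ndel1 in this ratio was not tested. The mean log2 ratio was 4.43 ± 0.154 in controls and 4.41 ± 0.125 at 10 Hz, against 3.86 ± 0.216 at 1 Hz and 3.75 ± 0.133 at 4 Hz (SD, n = 6). The sum of the myoblast and reserve cell markers given above divided the conditions in the same way, with all 12 libraries at 1 and 4 Hz under all others, although 2 of the 6 markers were called higher and 3 lower at each of these frequencies. Mean Myod1 was 214 CPM in controls and 188.6 CPM at 10 Hz, and 80.05 and 63.4 CPM at 1 and 4 Hz. Mean Myf5 went the other way, with 12.57 CPM in controls and 17.66 CPM at 10 Hz, and 31.44 and 28.28 CPM at 1 and 4 Hz. The part of these cells in the ratio was not tested.

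Among the muscle chains, the 10 Hz tissues stood apart from controls and 4 Hz, but not from 1 Hz, in their balance with the embryonic chain. Myh1 counts were 1.65 to 2.43 times those of Myh3 in controls, 0.941 to 2.54 times at 1 Hz, 1.63 to 2.34 times at 4 Hz, and 0.977 to 1.32 times at 10 Hz. Every 10 Hz library was below every control and every 4 Hz library for this ratio. Myh8 counts were 1.01 to 1.40 times those of Myh3 in controls, 0.838 to 1.60 times at 1 Hz, 1.17 to 1.65 times at 4 Hz, and 0.784 to 0.983 times at 10 Hz. So the embryonic chain exceeded the perinatal chain in estimated counts in all 6 libraries at 10 Hz and in none of the controls. Myh2 to Myh1 separated both 4 Hz (0.0767 to 0.105) and 10 Hz (0.0802 to 0.0958) from controls (0.125 to 0.159), with no overlap. By contrast Myh4 to Myh1 overlapped in all conditions, with medians of 0.462, 0.502, 0.501, and 0.501 in controls and at 1, 4, and 10 Hz.

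**Figure D3:**
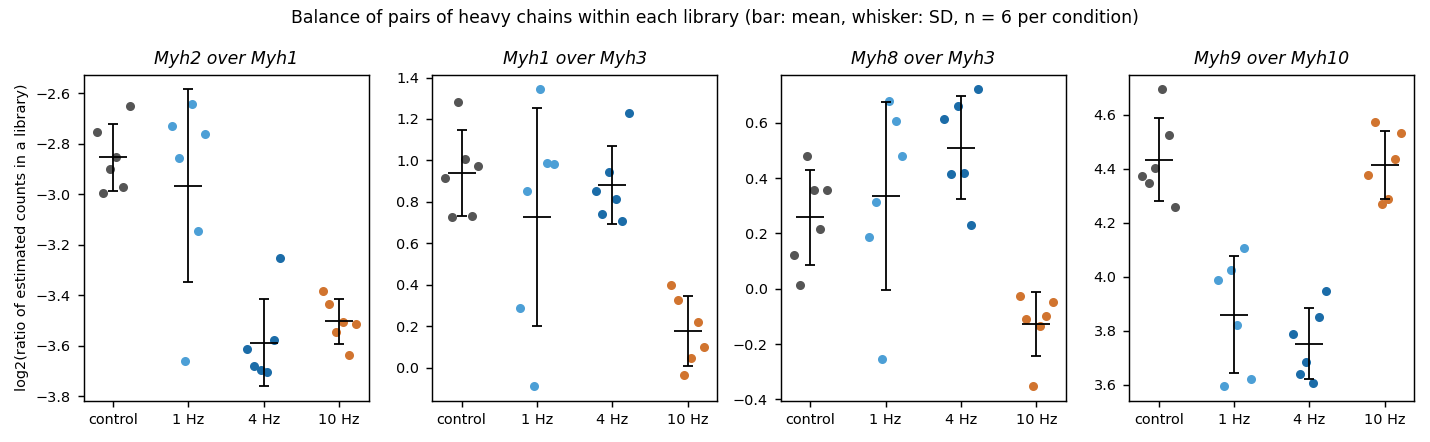
Log2 ratio of the estimated counts of pairs of heavy chain genes (y axis, log2 scale, panels with different ranges) within each library, by condition (x axis). Bars are means and whiskers SDs over 6 libraries. Myh9 over Myh10 is lower at 1 and 4 Hz (means 3.86 and 3.75) than in controls (4.43). Myh1 over Myh3 and Myh8 over Myh3 have their lowest means at 10 Hz, with ranges that overlap those at 1 Hz.

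As shares of the summed TPM of the 7 muscle members, Myh1 took 27.7 ± 1.73% (SD, n = 6), Myh7 23.7 ± 1.91%, Myh8 16.7 ± 0.655%, Myh3 14.2 ± 1.47%, and Myh4 12.7 ± 0.367% in controls. Myh2 took 3.76 ± 0.409% and Myh7b 1.32 ± 0.214%. At 10 Hz the share of Myh3 was 19.8 ± 1.75% and all 6 libraries were above every control, while Myh1 was at 22.8 ± 1.31% with all 6 below. At 4 Hz the share of Myh2 was 2.04 ± 0.324%, with all 6 libraries below every control, and that of Myh7b was 2.10 ± 0.236%, with all 6 above. The share of Myh7 did not separate any frequency from controls, with medians of 24.6% in controls and 27.5%, 27.5%, and 23.6% at 1, 4, and 10 Hz and overlapping ranges. Within the non-muscle members, Myh10 took 4.93 ± 0.701% of the TPM in controls and 5.12 ± 0.957% at 10 Hz. It took 7.98 ± 1.77% at 1 Hz and 7.65 ± 0.752% at 4 Hz, and all 12 libraries at 1 and 4 Hz were above every control. Each of these separations from controls was also seen in shares of the estimated counts. The share of Myh10 has the limit given above for reads of Ndel1.

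**Figure D4:**
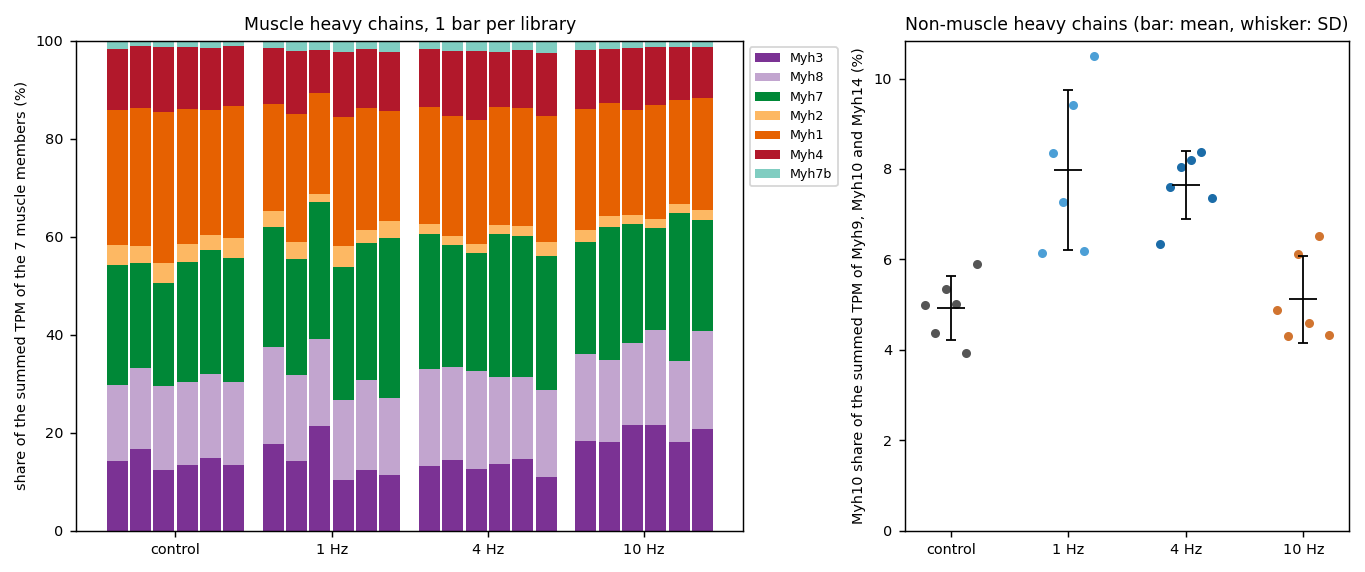
Left, share of each of the 7 muscle heavy chain genes in their summed TPM (y axis, %), 1 bar per library, grouped by condition (x axis). Right, share of Myh10 in the summed TPM of the non-muscle genes (y axis, %), with a point per library, the mean as a bar, and the SD as a whisker. Myh3 takes a larger share at 10 Hz (19.8%) than in controls (14.2%), and Myh10 takes a larger share at 1 and 4 Hz (7.98% and 7.65%) than in controls (4.93%).

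The frequencies were also compared with each other. Between 10 and 4 Hz, 7 of 10 members passed against 46.3% of all genes, with 6 lower at 10 Hz (24.4% of all genes) and 1 higher (21.9%). In CPM, libraries did not overlap for 7 of 10 members against 18.9% of all genes. In TPM, the ranges of these 2 conditions overlapped for Myh1, Myh2, Myh7, Myh8, and Myh14, and among these 7 only those of Myh7b and Myh9 stayed apart. Myh7b was 1.95-fold higher at 4 Hz than at 10 Hz (10 Hz against 4 Hz -0.96, SE 0.115, edgeR adjusted p = 5.9e-07). Myh14 (-0.77), Myh1 (-0.48), Myh4 (-0.48), Myh7 (-0.48), and Myh8 (-0.41) were also lower at 10 Hz, and Myh9 was higher by 0.59 (adjusted p = 0.0071) with all 6 libraries above every 4 Hz library. With an absolute log2(fold change) over 0.5 also required, 3 of the 10 passed here against 21.2% of all genes, and 2 of the 10 at 4 Hz against controls, where 25.1% of genes did. Without 4 Hz replicates 1, 3, and 6, 4 members passed here (Myh7b, Myh1, Myh14, and Myh7), and Myh9 had 0.56 (adjusted p = 0.068). On log2(TPM + 1), where the median of all genes was 0.20, Myh7b (-0.50) and Myh9 (0.88) passed again, the other 5 did not, and Myh3 passed instead, higher at 10 Hz by 0.52 (limma adjusted p = 0.021).

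Between 10 and 1 Hz, 3 of 10 members passed, all lower at 10 Hz, against 27.9% of all genes (14.8% higher and 13.1% lower). These were Myh2 (-0.89, edgeR adjusted p = 0.0018), Myh7b (-0.62, adjusted p = 3.1e-04), and Myh14 (-0.64, adjusted p = 0.014), and none of the 10 was without overlap, against 7.7% of all genes. On log2(TPM + 1) Myh2 passed again (-0.54, limma adjusted p = 0.0423), Myh7b (adjusted p = 0.0686) and Myh14 (adjusted p = 0.270) did not, and Myh3 passed as higher at 10 Hz (0.50, adjusted p = 0.0485). In CPM, Myh14 did not pass when 1 Hz replicate 4 was left out (-0.40, adjusted p = 0.089). By contrast 5 members passed without 1 Hz replicate 1 or replicate 3. Between 4 and 1 Hz 0 members passed, and 0 were without overlap, against 0% and 0.376% of all genes. By edgeR 1465 genes had an unadjusted p under 0.05 there, among them Myh7b, Myh2, Myh7, and Myh8, and DESeq2 called 25 genes and 0 members. These comparisons share libraries with those against the control and are not independent of them.

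Levels of the members also varied together among libraries of the same condition. With condition means removed, Pearson's r of log2 CPM over the 24 libraries was 0.922 for Myh1 and Myh4, 0.875 for Myh7 and Myh8, 0.87 for Myh9 and Myh10, and 0.855 for Myh1 and Myh2. It was -0.39 for Myh9 and Myh7b. All values of a library share its depth and scaling, and neighbours share reads, so these are descriptions. Without removing condition means, so that differences between conditions count as well, the highest r over all tested genes with Myh9 was that of Tnks1bp1 (0.945), Srrm2 (0.942), and Supt6 (0.938). With Myh1 it was that of Myh4, Mybpc1 (0.90), and Actn2 (0.89), and with Myh2 that of Myot (0.81), Ei24 (0.80), and Eef1a2 (0.79). Myh7b was most like Tbc1d8 (0.91), Sema6c (0.90), and Plcl2 (0.90), which were 0.59, 0.64, and 0.697 with condition means removed. Myh10 was most like Pkd1 (0.90), Atxn2l (0.90), and Lrrk2 (0.89), and Myh3 most like Runx2 (0.80), Col3a1 (0.79), and Patj (0.79).

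In CPM, the light chains that bind these heavy chains and stiffen or regulate their lever arm were mostly higher at 4 Hz. Of 5 tested sarcomeric light chains 4 were higher and 0 lower, where 27.5% of all genes were higher, with a median log2(fold change) of 0.41 against 0.06 over all genes. Mylpf, the fast regulatory light chain, was higher by 0.57 (edgeR adjusted p = 0.0075) and Myl4, the embryonic and atrial light chain, by 0.41 (adjusted p = 0.0048). Of 5 non-muscle and smooth light chains 4 were higher at 4 Hz and 2 at 1 Hz, where 19.2% of all genes were higher, and 0 were lower. Myl6, an essential light chain of non-muscle myosin, was higher by 0.48 (adjusted p = 5.1e-04) with 1 Hz stimulation. With 4 Hz it was higher by 0.53 (adjusted p = 1.0e-04). The light chains of both lists had 0 calls at 10 Hz.

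Among 12 genes for the folding, assembly, and turnover of heavy chains, 1 was higher and 3 lower at both 1 and 4 Hz, and at 10 Hz 0 were higher and 1 was lower. These 4 of 12 genes are a smaller share than the 37.3% and 51.4% of all genes called at 1 and 4 Hz. Fbxo40, a muscle ubiquitin ligase subunit, was lower by 0.67, 0.44, and 0.62 on the log2 scale at 1, 4, and 10 Hz (adjusted p from edgeR 5.5e-06, 3.5e-04, and 0.0028). Fbxo32, or atrogin-1, was higher by 0.65 and 0.83 at 1 and 4 Hz, while Trim63, or MuRF1, which tags heavy chains for degradation, was lower by 0.44 and 0.29 on the log2 scale. Of 8 thick filament and M-band partners, 0 were higher and 1 lower at 1 Hz, and 1 was higher and 1 lower at 4 Hz. These are smaller shares than among all genes. Mybph was lower by 0.46 at 1 Hz and 0.24 at 4 Hz, and Mybpc2, the fast myosin binding protein C, was higher by 0.38 at 4 Hz (adjusted p = 0.045). Of 12 genes that control non-muscle myosin, 2 were higher and 1 lower at 1 Hz and 1 higher and 2 lower at 4 Hz, again a smaller share than among all genes. S100a4, which binds the Myh9 tail, was higher by 0.76 (adjusted p = 0.0065) with 1 Hz stimulation. With 4 Hz it was higher by 1.03 (adjusted p = 3.2e-04). Rock1, a kinase that activates non-muscle myosin, was lower by 0.33 at 4 Hz (adjusted p = 0.017).

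Of 23 transcription factors known for fibre type, 20 were tested, and 4 were higher and 6 lower at 1 Hz, 6 higher and 6 lower at 4 Hz, and 0 either way at 10 Hz. Among all genes 19.2% were higher and 18.1% lower at 1 Hz and 27.5% and 23.9% at 4 Hz. At 10 Hz 5 of all 13315 genes passed and 1074 had an unadjusted p under 0.05. Eya1, a transcriptional coactivator, was higher at 1 and 4 Hz (0.91 and 0.90). Mef2a was lower at 4 Hz (-0.69, edgeR adjusted p = 5.3e-07) and Nfix, which acts in the switch from embryonic to fetal muscle genes, at 1 Hz (-0.51, adjusted p = 1.4e-05). Genes were named by the smallest p, so naming at a single frequency does not make a change particular to it. Mean Mef2a was 307.6, 207.2, 190.1, and 298.6 CPM in controls and at 1, 4, and 10 Hz. Nfatc4 was higher at 1 and 4 Hz by 0.97 and 1.13 from a low level of 0.987 CPM in controls. Between 10 and 4 Hz, Ppargc1a, the coactivator PGC-1α, was lower at 10 Hz (-0.68, adjusted p = 9.3e-04).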

How the data were processed

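Per the labels, the submitters' notes name STAR and Salmon and the build GRCm39 (besides mm10 and hg19). The authors deposited estimated counts per gene from salmon, which need not be whole (6.15% were not) and are not normalized, and TPM, which the authors scaled per transcript length to a common total. Libraries were poly(A) selected, or ribodepleted where input was low, and read as 50-base pairs, with 8052369 to 18159144 estimated counts each. The study reports a directional (strand-specific) library kit and Ensembl annotations of GRCm39. Whether the strand was used in counting and which annotation release was used are not given in the sources used here.

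Counts were rounded and tested with edgeR 4.0.16 in R 4.3.3 (TMM, filterByExpr with minimum count 10 and minimum total 15, robust quasi-likelihood F test, 1 fit of 24 libraries with a mean for each condition, Benjamini-Hochberg over 13315 genes, threshold 0.05). Fold changes are unshrunk log2 values, and the standard error is their size over the root of F. TPM were tested with limma 3.58.1 on log2(TPM + 1) and log2(TPM + 0.1) for the 13422 genes at 1 TPM or more in 6 libraries. DESeq2 1.42.0 was an alternative, as were other size factors, no filter, a fit of 2 groups, a replicate block, and leaving out each library. The script was tested on simulated data. Genes named by rule are all members, the other class II heavy chain genes, the 3 genes of highest r with a member, and at most 2 genes per direction of each list with the smallest p, apart from a gene that is not reported here. Genes that overlap a member on the other strand and the myoblast and reserve cell markers are named outside this rule. The members and lists were chosen with earlier results of these data known. Exon positions, transcript lengths, and windows come from GENCODE M39 on GRCm39. Coding sequences were aligned with mafft 7.526. Promoters and miRNAs come from RefSeq tables on GRCm38.p6, in which all 10 members were matched. No pair of libraries within a condition agreed within sampling noise (lowest chi-square per degree of freedom 4.83).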

Additional observations from a re-analysis of the deposited data

Results flagged for a closer look

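In groups of 6 libraries, each member was examined for a library whose distance to the nearest other is large beside the range of its group. Of 40 groups, 2 were singled out, and chance alone does so for about 1 in 20. Both were 4 Hz replicate 6, with Myh2 at 56.0 CPM (the other 4 Hz libraries at 40.4 to 43.2 CPM) and Myh3 at 228 CPM (the others at 281 to 316 CPM). The distance was 0.797 and 0.634 of the group's range, over Dixon's 95% limit for 6 libraries. This library had the highest Myh2 and the lowest Myh3 of its condition. Without it, the log2(fold change) at 4 Hz was -0.74 for Myh2 and 0.18 for Myh3, with both calls unchanged.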

How the results depend on the processing

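Leaving out 1 library moved the number of members called over 4 to 6 at 4 Hz, 1 to 3 at 1 Hz (2 without 1 Hz replicate 1, 3 without 1 Hz replicate 4), 0 to 1 at 10 Hz (0 without any library except control replicate 5), and 2 to 5 between 10 and 1 Hz (5 without 1 Hz replicate 1 or 3). It moved 4 directions: Myh7, Myh4, and Myh3 at 1 Hz spanned -0.053 to 0.14, -0.17 to 0.064, and -0.070 to 0.11, and Myh8 at 10 Hz -0.12 to 0.019, and none of these was called. With an absolute log2(fold change) over 0.5 required as well, 2 members passed at 4 Hz (25.1% of all genes) and 3 between 10 and 4 Hz (21.2%). On each of the 2 TPM scales 2 passed at 1 Hz, 3 at 4 Hz, 0 at 10 Hz, and 3 between 10 and 4 Hz. At 10 Hz, 0 passed without a filter and 2 when the fit held 2 groups.

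On log2(TPM + 1) the sign changed for Myh3 (-0.17), Myh8 (-0.094), and Myh14 (-0.034) at 1 Hz, Myh1 (-0.27), Myh3 (-0.19), Myh4 (-0.11), Myh10 (-0.097), and Myh14 (-0.12) at 4 Hz, and Myh7b (0.014) at 10 Hz. On log2(TPM + 0.1) these were -0.17, -0.095, and -0.068, then -0.27, -0.19, -0.11, -0.11, and -0.18, and 0.016. Among these only Myh14 at 4 Hz was called in CPM. Chosen after seeing the data, scaling by the summed heavy chain counts turned Myh4 at 1 Hz to 0.054 and Myh8 at 10 Hz to 0.022, and leaving out 1 Hz libraries 4 and 6 gave 2 members at 1 Hz and 2 between 4 and 1 Hz. Leaving out 4 Hz libraries 1, 3, and 6, also chosen after seeing the data, gave 2 members at 4 Hz and 4 between 10 and 4 Hz, and 3 libraries then remained at 4 Hz. The cause was not tested in any of these cases.

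Same-numbered replicates did not deviate together (median r -0.02 over 36 pairs, 3 over 0.1, and 0 of 24 libraries nearest to its own number), so the numbers were not read as pairs. With the replicate number as a block, 0 members passed at 10 Hz (Myh2 adjusted p = 0.10), and the block changed no other member's call. Shares moved by less than the SD in all 240 recomputations without a library. In shares of estimated counts, 25 of 40 moved by more than the SD.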

Other observations

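Of the heavy chain genes outside the list, Myh6, the alpha chain of heart muscle and the neighbour of Myh7, had 35.8 ± 7.02 CPM (SD, n = 6) in controls and 51.5 ± 4.73 CPM at 4 Hz, where its log2(fold change) was 0.53 (SE 0.121, edgeR adjusted p = 8.4e-04) and 5 of 6 libraries lay above every control. Myh13 was near the limit of detection at 0.824 ± 0.238 CPM in controls. Myh11 and Myh15, at or under 0.447 CPM and 0.111 CPM in every library, were under the filter.

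The level of Myh6 depends on the unit. It had 48.6 ± 9.01 TPM in controls against 60.6 ± 8.33 TPM for Myh4, but 5.73 ± 1.12 against 39.3 ± 4.72 CPM per kb of canonical transcript. Relative to Myh1, the reads behind 1 TPM were 0.154 to 0.243 for Myh6 over the 24 libraries, where the canonical lengths give 0.827. They were 0.475 to 0.788 for Myh7, 0.460 to 1.10 for Myh14, and 0.813 to 1.35 for Myh10, but 0.993 to 1.04 for Myh2 and 1.22 to 1.28 for Myh9. For Myh7b they were 0.620 to 0.919. The spread of this quantity over the libraries was at most 4.70% for Myh2, Myh3, Myh4, Myh8, and Myh9, and 48.1% or more for the others. The annotation used for positions here holds 92 transcripts of Myh6 and 38 of Myh7, against 15 of Myh2. The cause of the difference between the units was not tested.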
